A study of Mus musculus with 27 samples.

Results

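Brain-derived neurotrophic factor (Bdnf), neurotrophin 3 (Ntf3) and the receptor tyrosine kinases TrkB (Ntrk2) and TrkC (Ntrk3) were examined in mouse osteosarcomas, malignant tumours of bone, and in their metastases. The 4 genes were chosen by name, and 1 probe per gene was taken by the highest mean level over all 27 arrays, so that the probe was picked from measured values. Of the 4 genes, 3 had a probe with their symbol in the platform annotation, among 19057 named genes on the array. Ntf3 had 0 such probes and was not analysed here. Bdnf was read by 6 probes, Ntrk2 by 4 and Ntrk3 by 3.

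The tumours arose in mice of a C57BL/6 background that carried Cre recombinase driven by a rat Col1a1 promoter fragment active in the osteoblast lineage (Col2.3-Cre). These mice were crossed either to mice with a floxed p53 allele, which Cre removes, or to mice with a point-mutant p53 allele behind a lox-stop-lox cassette, which Cre switches on, and the labels do not say which allele each tumour carried, nor the age of the mice. The arrays covered 2 liver metastases, 7 lung metastases, 12 primary tumours that gave metastases (metastatic primaries) and 6 primary tumours that did not (localized primaries). Each lung metastasis had its own primary on an array. The liver metastasis of specimen CR-147 had its own primary and lung metastasis here, and the primary of the RF-342 liver metastasis was not analysed here. A level below is the log2 normalized intensity, and a probe is called detected where its detection p-value was under 0.05.

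Neurotrophins are secreted growth factors, best known for the survival and growth of neurons. They are made as precursors that furin, other proprotein convertases and plasmin cleave. Mature Bdnf binds TrkB, neurotrophin 3 binds mainly TrkC, and all neurotrophins bind p75, the product of Ngfr. A Trk receptor that binds its ligand recruits Shc and Frs adaptors and activates the ERK, PI3K and phospholipase C gamma pathways. Outside the nervous system, Bdnf is made by muscle, endothelium and lung, among others, and in humans by platelet precursors.

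Transcription of Bdnf starts at several alternative first exons that are spliced to 1 shared coding exon, so that the start window is shown here as context for a gene with 6 probes. RefSeq (build GRCm38.p6) lists 7 start windows for Bdnf, 2 for Ntf3 and 1 for Ntrk2, each running from 250 bases before to 50 bases after a start. The sequence TCACGTCA, which in rodent neurons is known as a calcium- and cAMP-responsive element of Bdnf, was searched on both strands. It lay in 1 of the 7 Bdnf windows and in 0.441% of all 32851 mouse windows. The window that holds it, on the plus strand at chr2:109692186-109692485, is printed 5′ to 3′ with the element in capitals.
Bdnf: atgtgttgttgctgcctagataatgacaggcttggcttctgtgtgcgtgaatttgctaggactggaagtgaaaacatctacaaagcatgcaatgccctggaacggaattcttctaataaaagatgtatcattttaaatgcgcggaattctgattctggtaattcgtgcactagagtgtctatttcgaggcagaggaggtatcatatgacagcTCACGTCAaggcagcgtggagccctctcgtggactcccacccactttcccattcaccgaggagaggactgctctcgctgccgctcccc
The full palindrome TGACGTCA lay in 1.79% of all windows and in 0 of the Bdnf windows. The platform annotation names a RefSeq transcript for each Bdnf probe, and which start each transcript uses was not analysed here. A match of letters is a description of the window only.

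**Figure D1:**
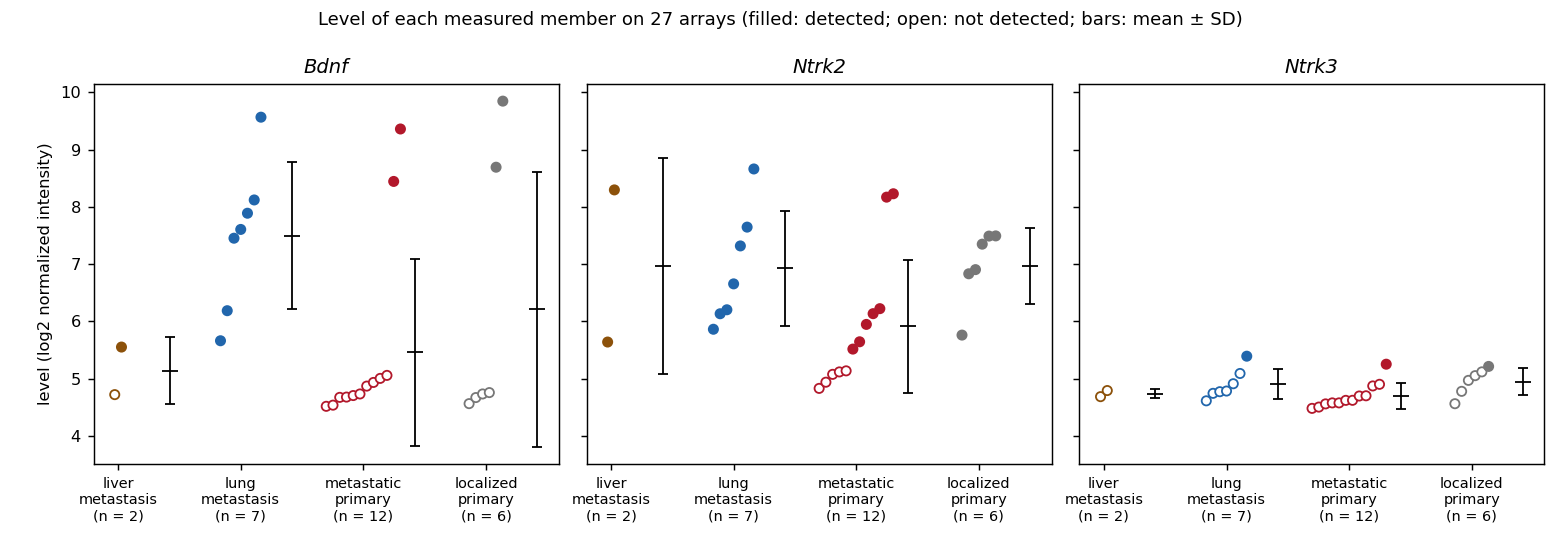
Levels (log2 normalized intensity, vertical axis) of Bdnf, Ntrk2 and Ntrk3 on each of the 27 arrays, by group. Filled points are detected, open points are not, and the bars give the mean and SD of each group. Bdnf was detected in all 7 lung metastases and in 4 of 18 primaries, Ntrk2 on 22 arrays and Ntrk3 on 3.

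Bdnf, the ligand, was the member with the widest range. It was detected on 12 of the 27 arrays. Where it was detected its level lay between 5.55 and 9.85, and where it was not it lay between 4.52 and 5.06. In the liver metastases its level was 5.55 in CR-147, detected, and 4.72 in RF-342, not detected. In the lung metastases it was 5.66 in CRE-155, 6.19 in CR-147, 7.45 in RF-364, 7.61 in RF-379, 7.89 in FC-279, 8.12 in RF-212 and 9.57 in FC-28. All 7 lung metastases were detected and lay above the 15 arrays without detection. In the 12 metastatic primaries the lowest level was 4.52, the median 4.80 and the highest 9.36. Only CR-45, at 9.36, and FC-28, at 8.44, were detected in that group. In the localized primaries Bdnf was 9.85 in CR-65 and 8.69 in RF-56, both detected, and 4.56 to 4.76 in the other 4, none of them detected. The order of the group means was therefore lung metastases, 7.50 ± 1.29 (SD, n = 7), localized primaries, 6.21 ± 2.40 (SD, n = 6), metastatic primaries, 5.46 ± 1.63 (SD, n = 12), and liver metastases, 5.14 ± 0.59 (SD, n = 2). Each step between neighbours in this order was smaller than the SD of at least 1 of the 2 groups. The mean of the primaries stands for few of them, since 14 of 18 lay at the level of no detection.

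The 4 primaries in which Bdnf was detected were also the 4 with the lowest mean level of the osteoblast and bone matrix markers, a list of 11 measured genes that includes Col1a1, Ibsp and Sp7. This mean was 6.77 in CR-65, 7.20 in CR-45, 7.48 in RF-56 and 7.61 in FC-28, and it ran from 11.7 to 13.1 in the other 14 primaries. The split was not particular to the bone list. The mean of the ERK response genes was 8.71 to 8.93 in these 4 and 7.33 to 8.40 in the other 14. That of the GDNF family ligands and receptors was 6.10 to 6.51, against 5.88 at most. Among the lung metastases, FC-28 had the highest Bdnf level and a bone list mean of 6.50. The other 6 lung metastases detected Bdnf as well, with a bone list mean of 11.9 to 13.6. In bulk tissue, fewer cells of a type and less RNA per cell cannot be told apart. Because these 4 primaries were singled out by their Bdnf values, no test was made on them.

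**Figure D2:**
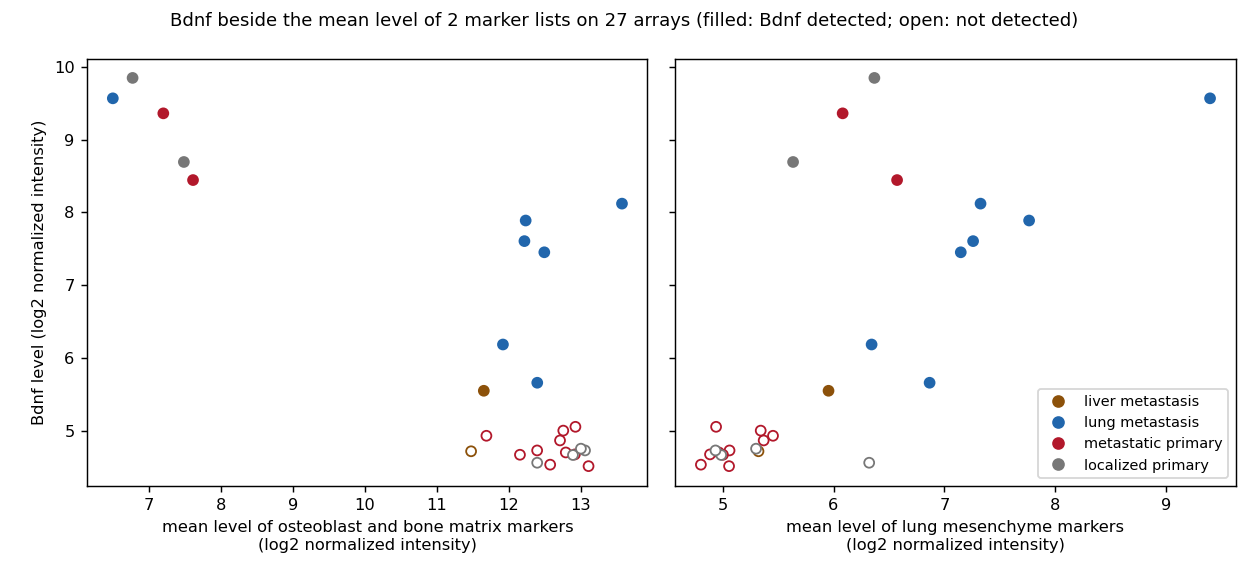
Bdnf level (vertical axis) against the mean level of the osteoblast and bone matrix markers (left) and of the lung mesenchyme markers (right), all as log2 normalized intensity, for 27 arrays coloured by group; filled points detected Bdnf. The 4 primaries with Bdnf lie at the low end of the bone list, at 6.77 to 7.61, and the 7 lung metastases lie at 6.34 to 9.40 on the lung mesenchyme list.

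The lung metastases were set against the primaries from which they came, as the design of the series describes. Bdnf rose in the lung metastases. It was higher than in the own primary in 7 of 7 pairs, and the difference, lung metastasis minus own primary on the log2 scale, was 0.96 in CRE-155, 1.12 in FC-28, 1.45 in CR-147, 2.45 in RF-364, 3.02 in FC-279, 3.06 in RF-212 and 3.07 in RF-379. The group means were 7.50 ± 1.29 in the lung metastases and 5.34 ± 1.38 in their own primaries (SD, n = 7 each). The ranges of the groups overlapped, because the FC-28 primary, at 8.44, exceeded 6 of the 7 lung metastases. In the other 6 own primaries Bdnf was not detected, so that their differences are set against a level of 4.54 to 5.06 at which the probe measured no signal. The log2 fold change was 2.16 (SE 0.31), with an adjusted p of 0.00322 by limma with the specimen as a block and Benjamini-Hochberg adjustment over the 11214 genes tested. Of these genes, 5.7% rose in the lung metastases and 8.29% changed in either direction, and Bdnf was 1 of the 2 members tested there to be called. The genes were proposed with results of these data in view, so the adjusted p is no independent evidence for Bdnf. Bdnf also met the detection requirement of this test through the group in which it was higher. All 7 lung metastases detected it, and of the own primaries only FC-28 did. Without that requirement, in the limma fit over all 34885 named probes, the probe used had an adjusted p of 0.0191.

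The call of Bdnf was kept with each of the 7 pairs left out, with log2 fold changes of 2.01 to 2.36. It was lost in other settings. Without the specimen block the fold change was the same, 2.16, with an adjusted p of 0.0734, and without the 3 pairs whose lung metastasis carried hepatocyte transcripts (RF-364, CR-147 and RF-379) it was 2.04 with an adjusted p of 0.0717. Array background moved with the site: 5 of the 7 own primaries and 0 of the 7 lung metastases were arrays of high background. With background as a covariate the fold change was 1.70 (SE 1.41, adjusted p 0.509). Within the 2 pairs whose arrays both had low background, FC-279 and FC-28, it was 2.07 (SE 0.61, adjusted p 0.301), and over all 9 low-background arrays without a block it was 0.84 (SE 1.04, adjusted p 0.863).

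**Figure D3:**
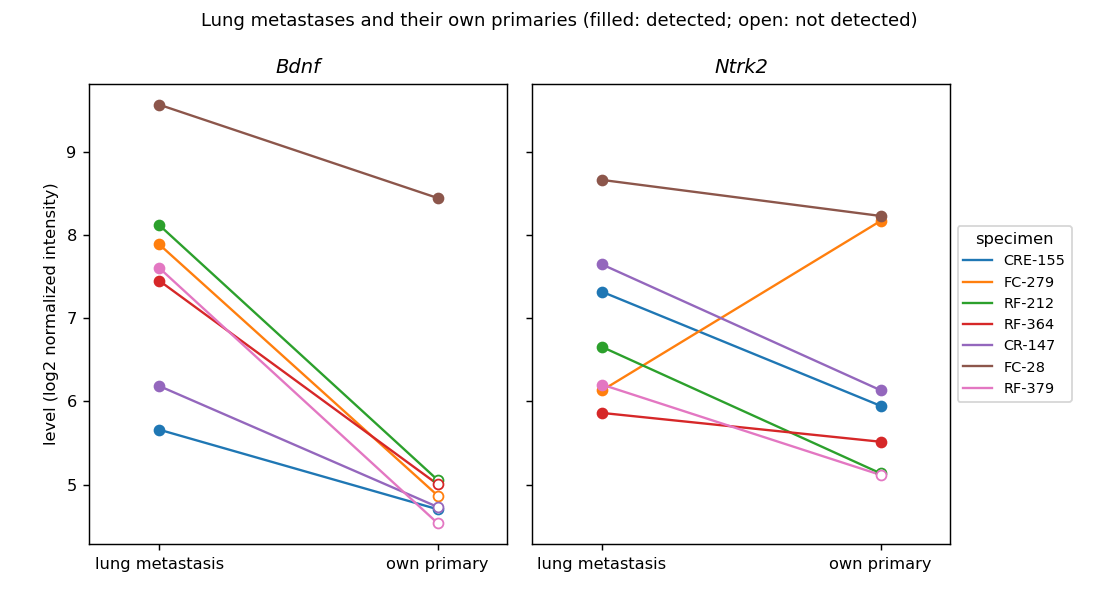
Levels (log2 normalized intensity, vertical axis) of Bdnf and Ntrk2 in 7 lung metastases (left end of each line) and in the primaries from which they came (right end); each line is 1 specimen, and filled points are detected. Bdnf is higher at the lung end of all 7 lines, by 0.96 to 3.07, and Ntrk2 at the lung end of 6, with FC-279 running the other way by 2.04.

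**Figure D4:**
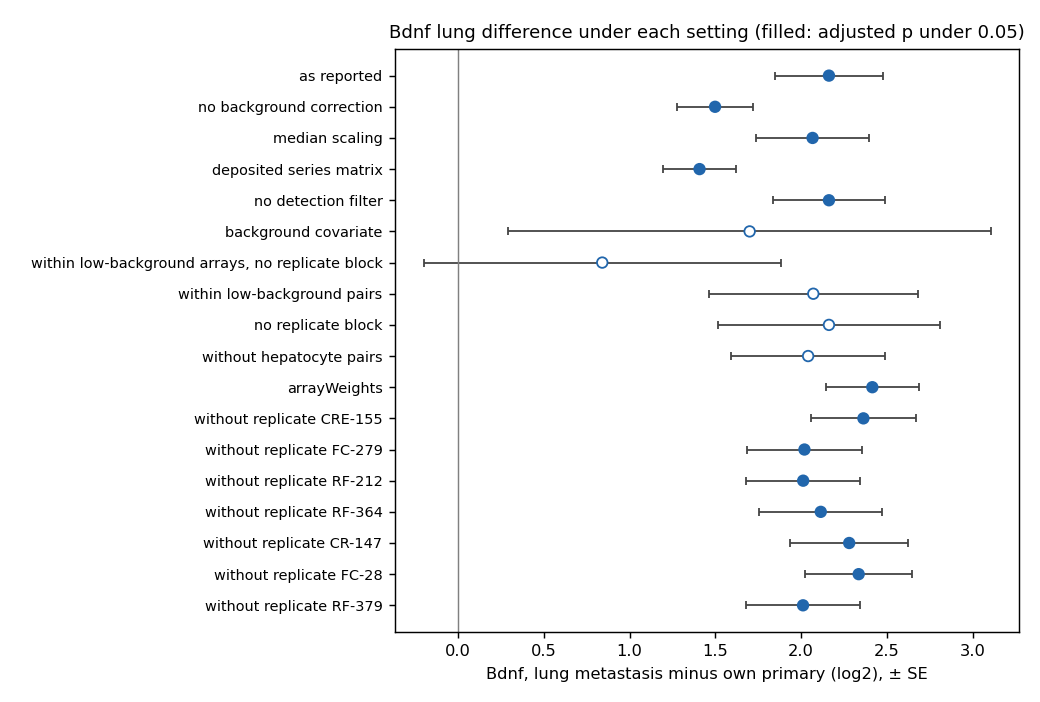
Log2 fold change of Bdnf, lung metastasis minus own primary, with its SE (horizontal bars) as reported and under each alternative setting of the same probe; filled points have an adjusted p under 0.05. All 18 values lie above 0, between 0.84 and 2.41, and 5 of them are not past the threshold.

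Transcripts of the surrounding lung were present in the lung metastases. All 13 lung epithelium markers were tested and all 13 rose, and their mean level was 11.5 to 13.3 in the lung metastases, against 4.82 to 5.69 in the own primaries, where Sftpb, Sftpa1, Cxcl15, Sec14l3 and Foxj1 were not detected on any array. Of 6 tested lung mesenchyme markers, 4 rose: Tbx4, Wnt2, Foxf1 and Tcf21. Of all genes tested in this comparison, 5.7% rose. Sftpb, Sftpa1, Cxcl15, Sec14l3, Foxj1, Tbx4 and Tcf21, with no detection in the own primaries, met the detection requirement through the lung metastases alone. The transcription factor Tbx4, a gene of this marker list, was detected on 7 of 7 lung metastases and 0 of 7 own primaries. It was not confined to the lung, since 1 of 6 localized and 2 of 12 metastatic primaries detected it. Its highest level was 5.94 in the localized and 7.24 in the metastatic primaries. The mean of the 7 measured lung mesenchyme markers was 6.34 in CR-147, 6.87 in CRE-155, 7.15 in RF-364, 7.26 in RF-379, 7.33 in RF-212, 7.76 in FC-279 and 9.40 in FC-28, against 4.80 to 6.57 in the own primaries. CR-147 and CRE-155, lowest on this list, were also the lung metastases with the least Bdnf, and FC-28, highest on it, had the most. The same held for the lung epithelium markers, at 11.47 in CR-147, 12.15 in CRE-155 and 13.30 in FC-28, and for the endothelial and pericyte markers, at 9.08, 9.50 and 11.16 in these 3, so the match was not particular to lung mesenchyme.

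Markers of other cell types were read in the same pairs. The mean of the 10 endothelial and pericyte markers was 9.08 to 11.2 in the lung metastases and 8.32 to 9.20 in the own primaries, and Cldn5, Vwf and Esam rose among 10 tested. The mean of the 6 platelet and megakaryocyte markers was 6.38 to 11.02 in the lung metastases and 6.07 to 8.02 in the own primaries, and Ppbp, a platelet chemokine, rose among 5 tested. Skeletal muscle markers ran the other way: 11 of 11 tested fell, with a list mean of 4.88 to 7.18 in the lung metastases against 7.73 to 13.4 in the own primaries. The neuron marker means were 5.15 to 5.79 in the lung metastases and 5.16 to 6.70 in the own primaries, with Snap25 and Nefl not detected on any array of either group. Of the other lists, Pmp22 rose among 3 tested Schwann cell markers, Myh11 among 5 of smooth muscle and Marco among 7 of macrophages. Ttr, Hpx and Hp rose among 5 tested hepatocyte markers. Calls numbered 0 among 10 tested osteoblast and bone matrix, 7 neutrophil, 3 keratinocyte and 3 neuron markers. The part of these cell types in the Bdnf difference was not tested.

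Probes named Bdnf did not read alike. The probe used, ILMN_3105417, was the brightest, and of the other 5 only ILMN_1255582 was detected on more than 2 arrays. It was detected in the lung metastases FC-279, at 5.24, and FC-28, at 5.83, in the metastatic primaries CR-45, at 6.13, and FC-28, at 5.83, and in the localized primary CR-65, at 7.33. These 5 arrays had a Bdnf level of 7.89 or more on the probe used. So did the localized primary RF-56, at 8.69, and the lung metastasis RF-212, at 8.12, which were not detected by ILMN_1255582. Its own lung difference was 0.28 (SE 0.10), with an adjusted p of 0.164 by limma over all 34885 named probes, where the probe used gave 2.16 with an adjusted p of 0.0191. Probe ILMN_1214228 was detected in CR-45 and CR-65 and probe ILMN_2666980 in CR-65, while the remaining pair of probes was detected on no array. The annotation gives ILMN_2666980 the same RefSeq transcript as the probe used. It was not detected in either group of the lung pairs. Its lung difference was -0.05 (SE 0.04, limma adjusted p 0.539 over all named probes), so it did not show the rise. Which transcripts of Bdnf each probe matches was not analysed here.

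**Figure D5:**
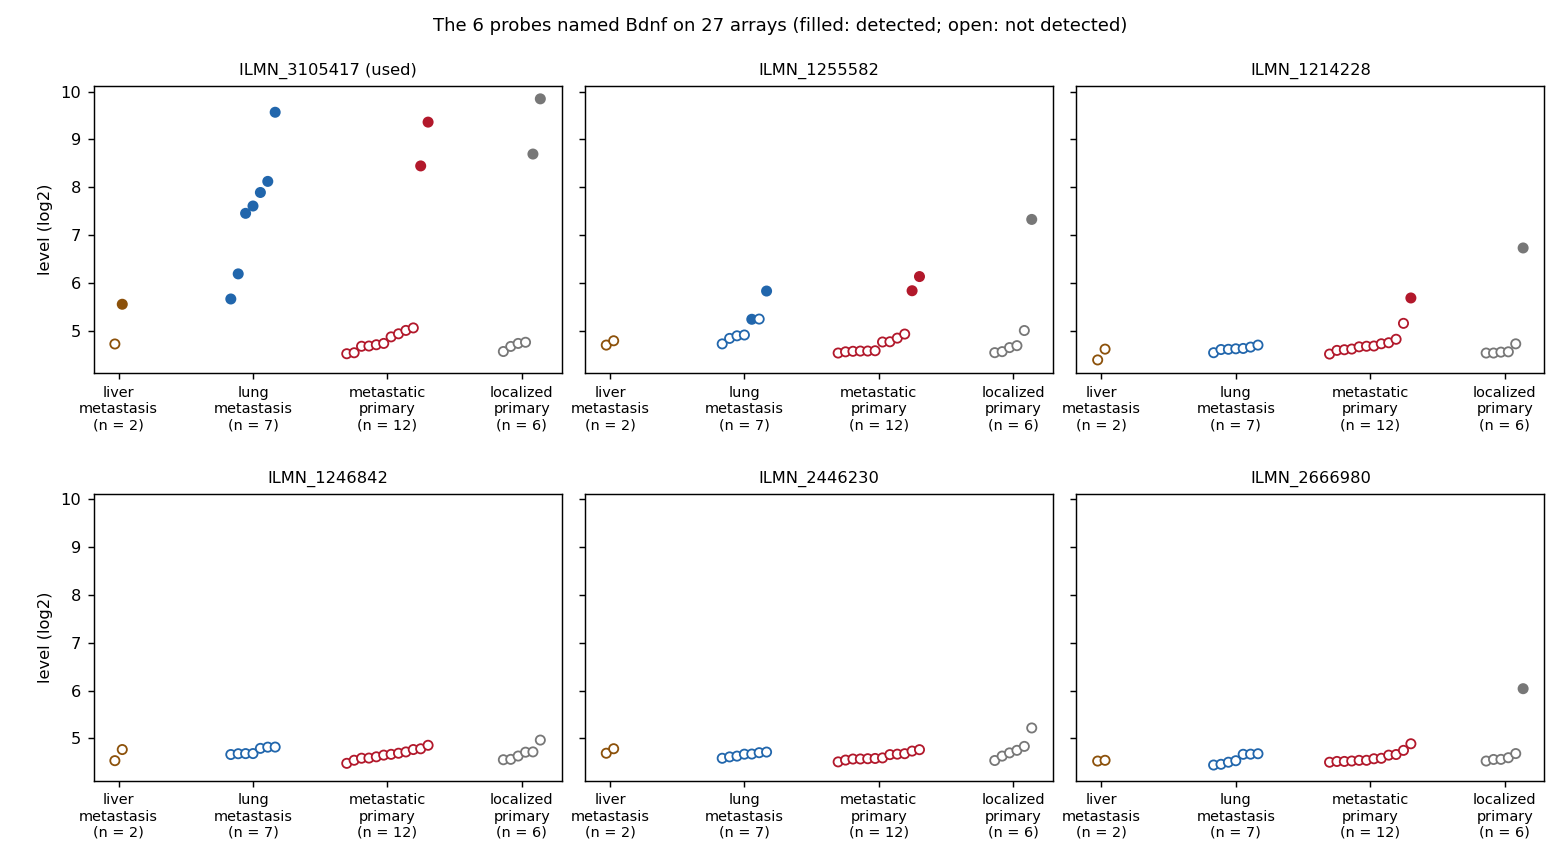
Levels (log2 normalized intensity, vertical axis) of the 6 probes named Bdnf on 27 arrays, by group; filled points are detected. The probe used separates 12 detected arrays, ILMN_1255582 is detected on 5 arrays at 5.24 to 7.33, and the other 4 probes on at most 2.

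The metastatic primaries were compared with the localized ones to ask what differs between tumours that spread and those that stayed localized. Bdnf was detected on 4 of these 18 arrays, below the 6 required for a test. In the fit over all named probes, without that requirement, its log2 fold change was -0.75 (SE 0.92), with a limma adjusted p of 0.886. Of the 11684 genes tested in this comparison, 0.00856% were called in either direction, and of the members tested, Ntrk2 alone, 0 were called by limma, with an unadjusted p of 0.0418 for Ntrk2.

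The liver metastases were set against the lung metastases and against the metastatic primaries in 1 fit of 21 arrays with the specimen as a random block. Both liver values of Bdnf, 5.55 and 4.72, lay below all 7 lung values, which began at 5.66, a pattern shared by 9.82% of the 13517 genes tested. The log2 fold change was -2.04 (SE 0.99), with a limma adjusted p of 0.266, so Bdnf was not called. Against the metastatic primaries it was 0.03 (SE 0.95, adjusted p 0.988), where 9.36% of genes were called. In specimen CR-147, for which all 3 sites were measured, Bdnf was 5.55 in the liver metastasis, 6.19 in the lung metastasis and 4.73 in the primary, the last not detected. That liver metastasis also carried lung transcripts, with a lung epithelium mean of 8.94, against 5.83 in the RF-342 liver metastasis. The 2 liver comparisons share their liver arrays.

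Ntrk2, the receptor of Bdnf, was detected on 22 arrays, including all 9 metastases. Its level was 8.30 in the CR-147 and 5.64 in the RF-342 liver metastasis. In the lung metastases it was 5.86 in RF-364, 6.13 in FC-279, 6.20 in RF-379, 6.66 in RF-212, 7.32 in CRE-155, 7.65 in CR-147 and 8.66 in FC-28. The metastatic primaries ran from 4.83, with a median of 5.58, to 8.23, and 7 of the 12 detected the receptor, FC-279 at 8.17 and FC-28 at 8.23 standing above the rest, which reached 6.22. The localized primaries all detected it, at 5.76 in RF-43, 6.83 in RF-44, 6.90 in CR-65, 7.35 in RF-191, 7.49 in CR-93 and 7.49 in RF-56. The means of localized primaries (6.97 ± 0.66, SD, n = 6), liver metastases (6.97 ± 1.88, SD, n = 2) and lung metastases (6.93 ± 1.00, SD, n = 7) lay within 0.05 of each other, and that of the metastatic primaries was 5.91 ± 1.16 (SD, n = 12).

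Ntrk2 averaged lower in metastatic than in localized primaries by -1.06 on the log2 scale (SE 0.48), with overlapping ranges. Its limma adjusted p was 0.753 over the 11684 genes tested, so the difference was not called. With the letter prefix of the specimen name as a covariate the value was -1.57 (SE 0.29, adjusted p 0.195). The prefixes CRE and FC occurred only among metastatic primaries, so that contrast came from the CR and RF arrays alone. It thus left out FC-279 and FC-28, the primaries with the most Ntrk2. In the lung pairs Ntrk2 was higher in 6 of 7 lung metastases, by 0.35 to 1.52, and in FC-279 it was lower by -2.04. The log2 fold change was 0.60 (SE 0.40, limma adjusted p 0.355). The FC-279 pair decided this call: without it the value was 1.04 (SE 0.22, adjusted p 0.0335). With array background as a covariate the sign turned, at -1.52 (SE 1.65), and over the 9 low-background arrays it was -1.27 (SE 0.66), neither of them past the threshold. The FC-279 primary, with Ntrk2 at 8.17, also had the highest neuron marker mean of the 27 arrays, 6.70, and an Ngfr level of 8.51, and their part in its Ntrk2 level was not tested.

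The liver metastases did not differ from either set past the threshold: the Ntrk2 log2 fold change was 0.21 (SE 0.79, limma adjusted p 0.950) against lung metastases and 1.06 (SE 0.76, adjusted p 0.461) against metastatic primaries. In CR-147 the level was 8.30 in the liver metastasis, 7.65 in the lung metastasis and 6.13 in the primary. Of its 4 probes, the other 3 were detected on 0 arrays, so the receptor rests on probe ILMN_3138904 alone, and whether this probe reads the full-length or the truncated form of TrkB was not analysed here.

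Ligand and receptor were not always detected on the same arrays. Among the 4 primaries that detected Bdnf, Ntrk2 was 8.23 in FC-28, 4.83 and not detected in CR-45, 6.90 in CR-65 and 7.49 in RF-56. In the FC-279 primary Ntrk2 reached 8.17 while Bdnf was not detected. In all 7 lung metastases both were detected, and FC-28 was highest for both. A correlation of the 2 levels over the primaries was not computed, because Bdnf fell into 2 separate sets of values there.

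By a rule set on the 18 primaries, the genes whose levels followed Ntrk2 most closely, of 11341 candidates, were Tubb4a (r = 0.85), Syngr3 (r = 0.81), Mfap4 (r = 0.80), Mtus1 (r = 0.76) and Mfap5 (r = 0.76). Spearman's rho ranged from 0.59 for Syngr3 to 0.81 for Mfap4. Tubb4a was detected in 4 of 6 localized and 4 of 12 metastatic primaries, and Syngr3 in 4 of 6 and 3 of 12. Many values behind the 2 highest r thus lay at the level of no detection. Without the 2 arrays farthest from the median the values of r were 0.63 to 0.77, and over all 27 arrays they were 0.20 for Mfap5 to 0.59 for Tubb4a. Tubb4a is a beta-tubulin of nervous tissue, Syngr3 a synaptic vesicle protein, and Mfap4 and Mfap5 are proteins of matrix microfibrils. These genes were taken as the highest of many, over arrays that share their processing, so the values describe these tumours and carry no test.

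Ntrk3, the receptor of neurotrophin 3, was detected on 3 of 27 arrays: the FC-279 lung metastasis, at 5.39, the FC-279 primary, at 5.25, and the localized primary RF-56, at 5.21. On the other 24 arrays it lay between 4.48 and 5.12. The 2 arrays of FC-279 were thus both above the level of no detection, by a small margin. It was detected on too few arrays to be tested in the primaries or the lung pairs. In the liver comparisons, where it was not detected on either liver metastasis, the limma adjusted p was 0.789 against lung metastases and 0.900 against metastatic primaries. The FC-279 primary was the only array on which the other 2 Ntrk3 probes were detected, at 5.61 and 5.41.

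Of the other ligands and receptors measured, Ntf5, the neurotrophin 4 gene, was detected on 0 arrays. Ngfr, which encodes p75, rose in the liver metastases against the lung metastases. Its level was 7.69 in CR-147 and 7.25 in RF-342, against 5.76 at most in the 7 lung metastases, and the log2 fold change was 2.20 (SE 0.56, limma adjusted p 0.0135), in a comparison in which 5.76% of genes rose and 9.01% were called in either direction. Against the metastatic primaries it was 1.55 (SE 0.54, adjusted p 0.0844). The Ngfr values rest on probe ILMN_2851288 alone. The other probes named Ngfr, ILMN_1231408 and ILMN_2635314, were not detected on any array. Their liver minus lung differences were 0.03 and -0.006 in the fit over all named probes. The highest Ngfr level, 10.98, was that of the localized primary RF-56, whose Schwann cell marker mean of 7.64 was also the highest of the 27 arrays. Sort1, which encodes sortilin, a receptor of proneurotrophins, was detected on all 27 arrays and was not called in any of the 4 comparisons, and the FC-28 pair alone differed by 4.40 in the direction of the lung metastasis. Sorcs2, a related receptor, was detected on all 27 arrays and not called either, Sorcs1 was detected on 4 and Sorcs3 on 0.

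Apart from Bdnf, 44 genes of the pathway lists were tested in the lung pairs and 0 were called by limma, while 4 were higher and 3 lower at an unadjusted p under 0.05. Of all 11214 genes tested there, 8.29% were called, and 1452 were higher and 1485 lower at that unadjusted threshold. In these pairs, where all tested genes had a median log2 difference of -0.06, 0 of 4 tested neurotrophin receptors changed (median 0.31), 0 of 4 convertases (median 0.15), 0 of 13 Trk adaptors and effectors (median -0.06), 0 of 4 p75 adaptors (median -0.25), 0 of 11 ERK response genes (median 0.14), 0 of 3 transcription factors known at Bdnf (median -0.21) and 0 of 5 members of the related GDNF family (median 0.16). Furin, a convertase of neurotrophin precursors, was at 12.7 ± 0.15 in the lung metastases and 12.3 ± 0.32 in the own primaries (SD, n = 7 each), with a limma adjusted p of 0.110. In the liver metastases Plg, the plasminogen gene of hepatocytes, and Gfra1, a co-receptor of GDNF, were called higher against both the lung metastases and the metastatic primaries, in fits that share the liver arrays. Plg averaged 13.2 in the liver metastases and 4.58 in the metastatic primaries, where no array detected it, and was at least 256-fold higher by the bound that the lowest detected signal gives, with a limma adjusted p of 7.89e-08. Plg thus met the detection requirement of that fit through the metastases alone. Gfra1 was 6.10 ± 0.27 (SD, n = 2) in the liver metastases and 5.08 ± 0.38 (SD, n = 12) in the metastatic primaries (adjusted p 0.00418). Only 3 of the 12 metastatic primaries detected Gfra1, so most of its values there lay at the level of no detection. All 10 hepatocyte markers were called higher in that comparison, and their part in these values was not tested.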

How the data were processed

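Total RNA of 27 tissue samples was measured on 1 single-colour Illumina bead array each, with biotin-labelled targets, per the labels. For 45281 probes, the bead files deposited by the authors list an average signal, which is a linear intensity without normalization per the file headers, beside a detection score and a bead count. The deposited detection score runs up to 1 for bright probes, and 1 minus it was taken as a detection p-value. A series matrix of log2 values, also deposited by the authors, served as an alternative. Per the submitters' processing notes BeadStudio was used, and the genome build is not given in the sources used here. Scanner probes were joined to the named probes of the matrix by the order of their values over the 27 arrays, which matched all 45281 probes. The platform annotation gave 1 gene symbol to 34885 of them, several to 18 and none to 10378.

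Intensities were background-corrected with normexp from the detection p-values (offset 16, as in neqc), log2 transformed and quantile normalized over the 27 arrays with limma 3.58.1 (R 4.3.3). Between 42.6% and 47.5% of probes were detected per array (detection p under 0.05), at a median of 41 to 44 beads, and the number of arrays limits the precision. Tests were limited to genes detected on at least 6 of 18 primaries, 7 of 14 paired arrays or 2 of 21 arrays of the liver comparisons. Fits used lmFit and eBayes, two-sided, with Benjamini-Hochberg adjustment over all genes tested and a threshold of 0.05. The specimen was a block in the lung pairs and a random block (statmod 1.5.0, consensus correlation 0.355) in the liver fit. The specimen numbers mark samples of 1 specimen, and the deviations of paired samples correlated at 0.32 to 0.55, in 7 of 7 pairs best with the own partner. The lung fit was also run on simulated data with log2 changes of known size, and the outcome is not given here. No pair of arrays correlated above 0.978 across probes, so none was treated as a duplicate.

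The members, the gene lists and the rule for named genes (all members with every probe, the 5 genes most like a member over the primaries, and the list genes past the threshold) were chosen with earlier results of these data known. Nothing in the labels tells whether specimens came from different animals, so p-values measure the spread between specimens. Array background was split at the widest gap into 20 low and 7 high arrays. Alternatives changed the background correction, scaling, filter, probe, block, covariates and arrays left out.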

Additional observations from a re-analysis of the deposited data

Results flagged for a closer look

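Among 12 sets of values of Bdnf, Ntrk2, Ntrk3 and Ngfr (localized primaries, lung metastases and lung pair differences), 2 held a sample farther from the rest than Dixon's 95% critical value, which chance exceeds in about 1 of 20 sets. The Ntrk2 difference of the FC-279 pair, lung metastasis minus own primary, was -2.04 on the log2 scale, while the other 6 pairs lay between 0.35 and 1.52. The Ngfr level of the localized primary RF-56 was 10.98, against 4.62 to 6.62 in the other 5 localized primaries.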

How the results depend on the processing

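Each comparison was refitted with 1 choice changed at a time, except that the 9 low-background arrays of the lung comparison were fitted without the block and the other probes in a fit without the detection filter, so those values cannot be credited to a single choice. For Bdnf in the lung pairs, 12 of 18 alternatives kept the call and 6 lost it, with the direction kept in all 18. The 6 were the background covariate (1.70), the 9 low-background arrays (0.84), the 2 low-background pairs (2.07), an alternative added after the data were seen, the removal of the hepatocyte pairs (2.04), the fit without the replicate block (2.16, adjusted p 0.0734) and probe ILMN_1255582 (0.28). The count of members called there was 1 as reported, 0 under each of the first 5 of these, and 1 to 2 with a pair left out, Ntrk2 being added without FC-279. Dropping the pairing of specimens by the replicate block changed no other member's call.

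The sign of members that were not called turned as follows. Ntrk2 in the lung pairs was -1.52 with the background covariate, -1.27 over the low-background arrays and -0.80 in the low-background pairs, against 0.60 as reported. Bdnf in liver metastases against metastatic primaries was 0.03 as reported, and -0.065 with median scaling, -0.012 in the deposited matrix, -0.063 without the detection filter, -1.02 with the background covariate, -0.49 over low-background arrays, -0.32 without the replicate block, -0.28 on probe ILMN_1214228, -0.10 on probe ILMN_1255582 and -0.74 to 0.64 with an array left out. Ntrk3 in that comparison, 0.05 as reported, was -0.15 with the background covariate, -0.024 over low-background arrays, -0.11 on probe ILMN_2599036 and -0.064 on probe ILMN_2632337. With an array left out, Ntrk2 ranged from -0.27 to 2.10 in liver metastases against metastatic primaries and from -1.14 to 1.23 against lung metastases, the lowest value in both without the CR-147 liver metastasis. The lone liver array left in such a fit is assumed to vary like the other groups. The causes were not tested.

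Genes called in the lung pairs numbered 930 as reported and 2665 with median scaling, 18 with the background covariate, 98 over the low-background arrays, 38 in the low-background pairs, 529 without the replicate block, 424 without the hepatocyte pairs and 489 to 859 with a pair left out. Median scaling moved the median log2 change of all genes to -0.32, against -0.06, and the share of calls that were higher to 24.1%, against 68.7%, and in liver metastases against metastatic primaries to 65.2%, against 75.7%. Genes called between metastatic and localized primaries numbered 1 as reported, 10 within the high-background arrays, 0 within the low-background arrays, 0 with the specimen prefix, 0 without the low-bone primaries and 0 to 2 with an array left out. In liver metastases against metastatic primaries they numbered 1265 as reported, 741 with the background covariate and 644 to 1405 with an array left out, and against lung metastases 1218 and 601 to 1284. Other probes were refitted only where at least 1 array of the comparison detected them. Correlations between members were not run, because only Ntrk2 was detected on enough primaries. Levels near the limit of detection are set in part by the background correction and its offset, so the folds of Bdnf against undetected primaries depend on them.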
